A study of Mus musculus with 3 samples.

Results

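Some transcripts stop early: their last exon lies inside an intron that a longer transcript of the same gene splices out. Here such terminal exons were collected from long-read transcript models of mouse CD4+ T cells. They were selected on the listed exon positions alone: a terminal exon was taken when it belonged to a multi-exon model and lay, from its last splice acceptor to its 3′ end, strictly inside an intron of another model on the same strand that shared at least 1 exact intron with it. The model that ends early is called the short form, the one that splices over it the long form and the intron it lies in the host intron. Of the 8719 distinct last acceptors in the data, 142 met this rule, in 116 annotated genes, and 8577 did not. They were carried by 414 short-form models and set against 517 long-form models.

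The models came from 3 PacBio libraries of wild-type CD4+ T cells from spleens and lymph nodes of male C57BL/6N mice aged 6 to 10 weeks. In order of stage these were naive cells, undivided cells after 48 h of activation and cells with 2 divisions in the same 48 h, with 1 library each. Naive cells were purified with an isolation kit and loaded with CellTrace Violet, a dye that each division dilutes. The activated cells then had 48 h on plate-bound anti-CD3 with anti-CD28 antibodies and were sorted by dye peak. With no replicate, nothing was tested, and each difference given is one between libraries. A model is either listed or not, because the data hold exon positions and no read counts. A form that is not listed may have been too rare to be sampled. Both activated libraries carry one cell number in their names and the naive library another, with no statement of what it stands for, so activation and whatever this number marks cannot be told apart. The libraries are bulk samples, in which fewer cells of a type and less RNA per cell cannot be told apart either.

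The 3′ end of an mRNA is made by cleavage and polyadenylation, for which a hexamer near the end, mostly AATAAA, is the best known signal. Where such a site lies in an intron, splicing and polyadenylation compete. A new acceptor inside the intron can join an upstream exon to an alternative last exon, which may change the C terminus of the protein or only its 3′ UTR. The U1 snRNP, which binds the start of introns, is known to hold back early polyadenylation. In lymphocytes the choice between membrane and secreted immunoglobulin is the classic example of such a pair of ends.

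The sequences around the acceptors and the ends of a few pairs were read from the genome. For 2 genes, the acceptor of the intronic terminal exon and that of the host intron are given below on GRCm38, as the last 20 bases of the intron and the first 3 of the exon, 5′ to 3′, with the closing AG in capitals.
Hnrnpa2b1 terminal exon (chr6:51463252-51463274, minus strand): ctttacttctgttgaaacAGgct
Hnrnpa2b1 host intron (chr6:51462053-51462075, minus strand): tttccctgctggaattttAGcat
Cdc42 terminal exon (chr4:137322617-137322639, minus strand): tcctcccctctgtcttgtAGaga
Cdc42 host intron (chr4:137321190-137321212, minus strand): ttctttctaccccttttcAGaaa

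The last 30 bases of 5 short forms follow, with the poly(A) signal in capitals. They were chosen because their genes are described below.
Hnrnpa2b1 3′ end (chr6:51462768-51462797, minus strand): tgtacatttatgatttAATAAAataattct
Skap1 3′ end (chr11:96582664-96582693, plus strand): tgatgtaaattgaAATAAAttgtacagcat
Cdc42 3′ end (chr4:137321765-137321794, minus strand): ttgaaATTAAAaatatacaattgtttgtat
Npm1 3′ end (chr11:33154927-33154956, minus strand): agctactctcAATAAAtttttaaatgaatc
Eif4e2 3′ end (chr1:87228033-87228062, plus strand): gctgagatcacaAATAAAtggtgctaaacc

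Other short forms ended just before a stretch rich in A in the genome, on which an oligo(dT) primer can anneal. The 20 genomic bases that follow the end of 3 of them are given with each A in capitals. None of the 3 had a signal in the last 50 nt.
Sp100 after the 3′ end (chr1:85682684-85682703, plus strand): AAAAAAAAcAAAAcAAAAcA
Snrnp70 after the 3′ end (chr7:45381331-45381350, minus strand): AAAAAcAcAcAgAAAAAcAA
Cd3e after the 3′ end (chr9:45003159-45003178, minus strand): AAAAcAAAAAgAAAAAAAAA

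The terminal exons and their host introns varied widely in size. The host intron had a median of 6165 nt and ranged from 1024 to 161122 nt, while all 68985 distinct introns had a median of 1172 nt. A long intron has more room for an exon, and the rule itself favours it. The terminal exon had a median length of 651 nt (139 exons on reference chromosomes, range 8 to 3490 nt), against 820 nt for the other last acceptors. It began at a median of 30.7% of the way into the host intron, and 102 of 142 began nearer to the donor than to the acceptor. From the short end to the host acceptor the median distance was 2797 nt, and to the farthest end of a long form it was 8024 nt. In 103 of 142 members a short and a long form left the same splice donor for different acceptors.

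**Figure D1:**
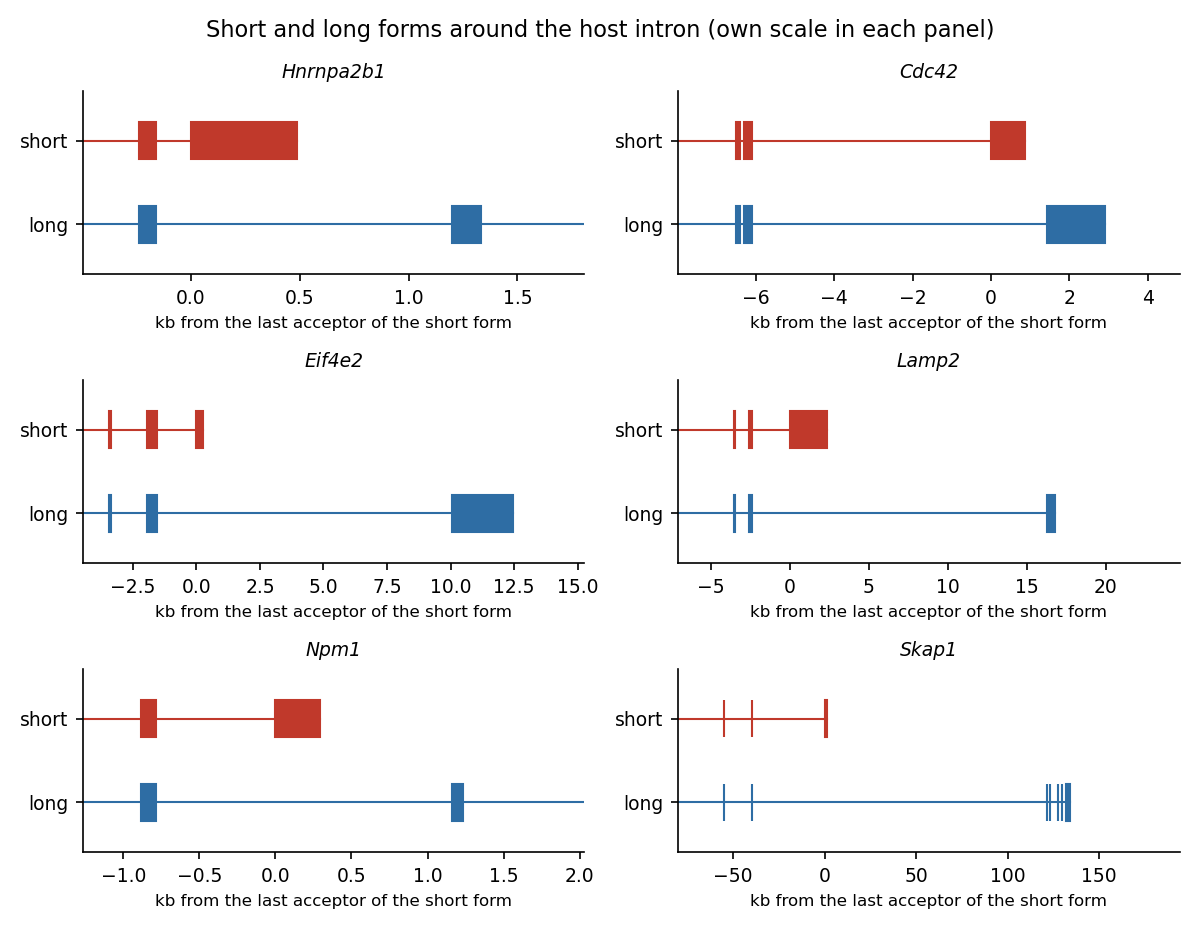
Exons (boxes) and introns (lines) of 1 short and 1 long model in 6 genes, drawn to scale along the transcript in kb from the last acceptor of the short form, with an own scale in each panel. In each gene the last exon of the short form lies in the space that the long form splices over, from 1355 nt in Hnrnpa2b1 to 161122 nt in Skap1.

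The acceptors themselves resembled ordinary ones. An AG closed the last intron in 133 of 139 terminal exons, 95.7% (95% Clopper-Pearson interval 90.8 to 98.4%), against 98.4% of the other last acceptors. In the 17 bases before the last 3 of the intron, pyrimidines numbered a median of 13 at the terminal exon and also 13 at the host acceptor. In 56 members the terminal acceptor had more pyrimidines than the host acceptor, in 71 it had fewer and in 12 as many. Hnrnpa2b1 had 11 against 12 at its host acceptor, and Cdc42 15 against 16. All intervals in the text cover counting error only, since members of one gene share sequence and models.

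The ends differed in whether they had a signal and whether an A-rich stretch followed them. A poly(A) signal, AATAAA or ATTAAA on the transcript's strand in the last 50 nt, was present in 72 of 139 terminal exons, 51.8% (43.2 to 60.3%). Over all last acceptors that share was 64.9%, and over the other last acceptors 65.2% (64.1 to 66.2%). AATAAA accounted for 61 of the 72 and ATTAAA for 11, at a median of 21 nt before the end. Where an end had several, the one nearest to 20 nt before it was taken, which draws the median to that position. An A-rich stretch, defined as at least 12 A in the 20 genomic bases after the end, followed 61 of 139 ends, 43.9% (35.5 to 52.5%). Over all last acceptors 26.9% had one, and over the others 26.6% (25.7 to 27.6%). Both features were present in 9 members, a signal alone in 63 and an A-rich stretch alone in 52, and the rest had neither. Whether A-rich ends were primed inside the RNA was not tested.

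These shares followed the annotation. In 85 of 139 members the last acceptor is also a last acceptor in GENCODE M21, and here 69.4% of ends had a signal (58.5 to 79.0%) and 29.4% were A-rich (20.02 to 40.3%). Of the 7285 other last acceptors of that kind, 70.7% had a signal and 1530 were A-rich. In 25 members the acceptor is known only as that of an internal exon, and 5 had a signal (interval of the share 6.83 to 40.7%) while 72.0% were A-rich (50.6 to 87.9%). Again the other last acceptors of the kind were close, at 21.4% and 67.7%. In the remaining 29 members the acceptor is not in GENCODE, and 27.6% had a signal (12.7 to 47.2%), against 56.6% of the others (51.2 to 62.0%). Of these 29, 62.1% were A-rich (42.3 to 79.3%), against 43.4% of the others (38.0 to 48.8%). Their exons were also the richest in repeats, with a median of 35.2% of bases masked as repeats in the genome sequence, against 20.7% in the others. Of the 14 terminal exons of which repeats made up over 50%, 9 were in this class.

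**Figure D2:**
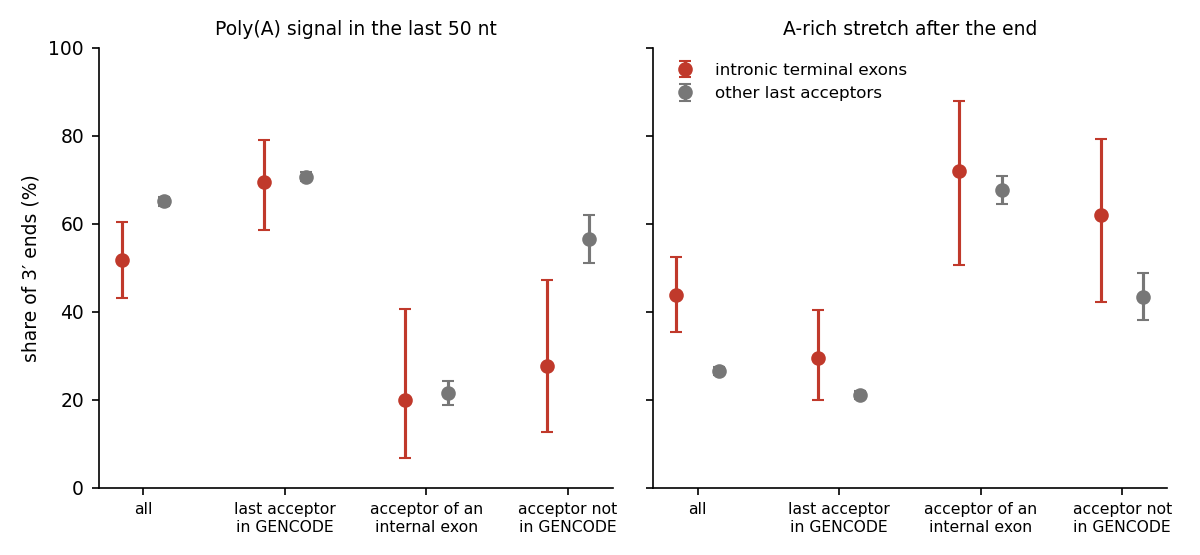
Share of 3′ ends with a poly(A) signal in the last 50 nt (left) and with an A-rich stretch after the end (right), for intronic terminal exons (red) and all other last acceptors (grey), over all and by annotation of the acceptor. Points are shares and bars exact 95% intervals. Among last acceptors in GENCODE the shares with a signal were 69.4% and 70.7%, while among acceptors not in GENCODE they were 27.6% and 56.6%.

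The pairs were not all of one make. Of the 139 members on reference chromosomes, 108 had a last intron and 101 a host intron that GENCODE lists. The last intron had GT or GC at its start and AG at its end in 129 of them, and the host intron in 121. Every 1 of the 10 last introns without these ends led to an acceptor that is not in GENCODE, and 8 of the 10 ended before an A-rich stretch. The shortest of all terminal exons, 8 nt in Hacd3, an acyl-CoA dehydratase of fatty acid elongation, belongs here. Of the 38 host introns that GENCODE does not list, 20 had the usual ends, and 30 of the 38 rested on 1 long-form model. In 18 members the host intron spanned several exons of the short form, at most 10, in Aplp2, an amyloid precursor-like protein. Ncl, Thrap3, Ddx27, Hsp90b1 and Hnrnpr had such introns over 4 or more exons. In those cases the long form lacks exons that the short form holds. Members with a shared donor had a signal in 64.4% (54.2 to 73.6%) and an A-rich stretch in 34.7% (25.5 to 44.8%) of ends, while those with another donor had 18.4% (7.74 to 34.3%) and 68.4% (51.3 to 82.5%). A last acceptor and a host intron that are both in GENCODE, with an end that is not A-rich, were found together in 49 of 139 members. A signal preceded 45 of these 49 ends, 91.8% (80.4 to 97.7%).

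The rule has a threshold at the edge of the host intron. Just inside it were Cd5, with an end 3 nt from the host acceptor in its longest model, Ndufb8 of respiratory complex I at 31 nt and Cops7a of the COP9 signalosome at 39 nt. Just outside were pairs in Nfkb2, a subunit of NF-kB, that reached 19 and 24 nt past the intron, and in Nop58, of box C/D ribonucleoproteins, at 23 nt. In all, 131 last acceptors lay inside an intron of a model with a shared intron while the end reached past it.

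Across the libraries the short form was listed for 76 members in the naive library, 89 in the undivided one and 88 in the 2-division one, and the long form for 93, 100 and 83. Both forms together were listed for 54, 61 and 54. The libraries held 9047, 11716 and 10253 multi-exon models, and members made up 1.38%, 1.41% and 1.52% of their last acceptors. Among members with either form in a library, the short form was listed for 66.1% in naive cells (56.7 to 74.7%, n = 115), 69.5% in undivided cells (60.8 to 77.4%, n = 128) and 75.2% after 2 divisions (66.4 to 82.7%, n = 117). These intervals overlap. Among the 55 members whose long form was listed in all 3 libraries the shares were 58.2%, 49.1% and 61.8%, without that order. With A-rich ends left out, the shares among all members with either form were 59.4% in naive cells (46.9 to 71.1%, n = 69) and 77.6% in undivided cells (66.6 to 86.4%, n = 76). After 2 divisions the share was then 82.7% (72.2 to 90.4%, n = 75). Each of these shares again rests on 1 library, and no test was run.

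**Figure D3:**
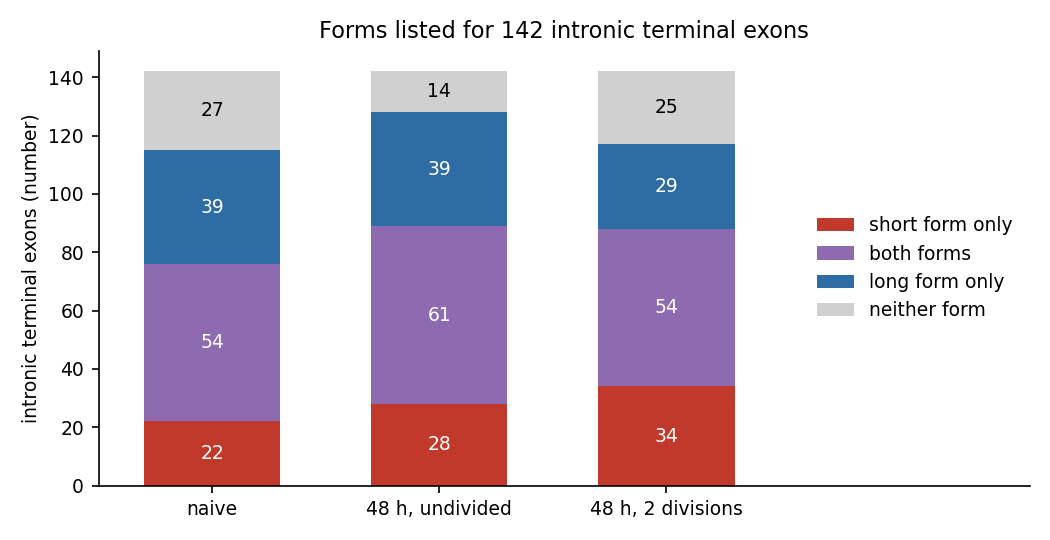
Number of the 142 intronic terminal exons for which each library listed the short form only, both forms, the long form only or neither. The short form alone was listed for 22, 28 and 34, and both forms for 54, 61 and 54, in order of stage.

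The short form was in all 3 libraries for 41 members, 28.9%, where 39.3% of all last acceptors and 33.6% of those in genes with at least 2 were listed 3 times. It was in an activated library and not in the naive one for 66, 46.5% (38.1 to 55.0%), beside 36.7% of all last acceptors and 37.0% of those in genes with at least 2. Of these 66, 45 were in 1 activated library only, a share of 31.7% of members beside 22.7% of all last acceptors and 26.3% of those in genes with at least 2. In undivided cells only there were 22, 15.5% beside 13.0% and 14.5% in the same order, and after 2 divisions only 23, 16.2% beside 9.69% and 11.8%. Both activated libraries shared 21, 14.8% beside 14.0% and 10.7%. The short form was in the naive library only for 27 members, 19.01%, beside 14.4% of all last acceptors and 19.9% of those in genes with at least 2. A single short-form model carried 68 of the 142 members, so the listing in 1 library often rested on 1 model. Both forms were listed in every library for 14 members, together in at least 1 library for 121 and never in the same library for 21.

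The ends of members listed in activated or in naive cells only differed. Of the 65 members on reference chromosomes with a short form in activated cells only, 36.9% ended before an A-rich stretch (25.3 to 49.8%) and 50.8% had a signal (38.1 to 63.4%). Of the 27 with a short form in naive cells only, 70.4% were A-rich (49.8 to 86.2%) and 29.6% had a signal (13.8 to 50.2%). The same direction was seen in the rest of the data, where 25.9% of the other last acceptors in activated libraries only and 48.4% of those in the naive library only were A-rich. Among members with an end that is not A-rich, the short form was in activated libraries only for 41 of 78, 52.6% (40.9 to 64.0%), and in the naive library only for 8 of 78, 10.3% (4.53 to 19.2%). Of the other last acceptors with such an end, 36.8% were in activated libraries only and 9.96% in the naive library only, so the naive share of members was near the background. Markers of B cells were listed in the naive library too, 5, 1 and 1 of 10 genes in order of stage, with 12, 5 and 4 models of Ighm, the heavy chain of IgM. Myeloid markers were listed for 1, 0 and 0 of 6 genes, erythroid and platelet markers for 2, 0 and 0 of 5, and CD8 T and NK cell markers for 2, 2 and 1 of 6. Of 15 CD4 T cell markers, 15, 13 and 13 were listed. The part of other cells in the naive members was not tested.

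Among genes of T cell receptor signaling and T cell identity, 3 of the 31 with a multi-exon model had a member, Cd5 and Cd3e among them, where 116 of all 6624 genes, 1.75%, and 55 of the 652 genes with at least 10 models, 8.44%, did. Cd5, an inhibitory receptor that sets the threshold of the T cell receptor, had 6, 8 and 8 short-form models, in order of stage, and 0, 1 and 2 long-form models. Its terminal exon, at chr19:10718149-10718595 on the minus strand, is an annotated last exon of 447 nt, and in both forms the stop codon lies 3 nt upstream of the last exon junction. The host intron of 1413 nt, which GENCODE does not list, leaves from the same donor and ends 27 nt past the exon, so that the long form lacks the exon whole. The longest predicted protein had 510 amino acids in the short form and 494 in the long form. The terminal exon lies past the stop and adds none of them, and downstream of the stop the forms differ in the 3′ UTR.

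Cd3e, the epsilon chain of CD3, had 1, 1 and 0 short-form and 3, 1 and 1 long-form models. Its terminal exon of 2348 nt is annotated in a retained-intron transcript, ended before 18 A in 20 bases and lay in a host intron without the usual donor.

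Skap1, an adaptor that couples the T cell receptor to integrins, had the widest host intron, 161122 nt, with 2 members in it. The first (chr11:96581183-96582693), with the AATAAA shown above, had 1, 0 and 1 short-form models, and the second (chr11:96677934-96679022), with 19 A in the 20 bases after its end and no signal, had 1, 0 and 0. The long form had 8, 2 and 3 models in the first case. Slamf6, a receptor of T cells known for forms with different cytoplasmic tails, had 3 members, all with a short form in naive cells only. A pair of them began 14 nt apart, at 171942564 and 171942578 of chromosome 1, with 2 and 1 naive models and 354 and 331 codons, against 351 in the long form. The third Slamf6 exon, 250 nt of which 79.6% are repeats, ended before an A-rich stretch.

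Il2ra, the alpha chain of the IL-2 receptor and a gene known to be induced by activation, had 1 short-form and 1 long-form model, both in undivided cells. Its short end had an AATAAA and was A-rich too, its acceptor is known only as that of an internal exon, and GENCODE does not list its host intron. Il2ra was the sole member among 30 cytokine receptor and JAK-STAT genes, 3.3%, beside 1.75% of all genes and 8.44% of those with at least 10 models. The transcription factors Foxp1, which keeps naive T cells quiescent, and Ikzf1, which encodes Ikaros, were the members among 26, 7.7%. Each had 1 short-form model, in naive cells. The Foxp1 exon of 149 nt lay wholly in a repeat, and it and the Ikzf1 exon ended before A-rich stretches. Tnfrsf9, the costimulatory receptor 4-1BB, had 0, 1 and 0 short-form models beside 0, 3 and 1 long-form models, and all 20 bases after its end were A.

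Among 41 splicing factor genes, 6 had a member, Hnrnpa1, Hnrnpa2b1, Hnrnpa3, Hnrnpr, Rbm39 and Srsf10, a share of 14.6% beside the 8.44% of genes with at least 10 models. Hnrnpa2b1, which binds mRNA in splicing and transport, had 6, 14 and 15 short-form models and 8, 20 and 13 long-form models. The terminal exon of 487 nt (chr6:51462768-51463254) begins 21 nt downstream of the stop codon in the mRNA, and both forms were predicted to encode 353 amino acids and to differ in the 3′ UTR. A second Hnrnpa2b1 terminal exon (chr6:51461873-51462055, 183 nt) was listed by 0, 1 and 1 models, and its acceptor is the host acceptor of the first.

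Hnrnpa3 and Hnrnpa1 had few long forms. Hnrnpa3 had 4, 5 and 5 short-form models and 0, 1 and 0 long-form models, and Hnrnpa1 had 1, 5 and 4 and 0, 1 and 1. Their stop codons lie 15 and 14 nt upstream of the last junction of the short form. The longest predicted protein had 379 amino acids in the short form against 357 in the long form of Hnrnpa3, and 373 against 320 in Hnrnpa1. Since the terminal exon lies past the stop of the short form in both genes, the extra amino acids do not come from that exon. Srsf10 had 2, 2 and 2 short-form models beside 1, 4 and 2 long-form models, all with an A-rich stretch after the 2065 nt exon. Rbm39, a splicing coactivator, had 0, 0 and 1 beside 3, 3 and 3. Its end had no signal and 15 A in the next 20 bases, and its last acceptor is annotated in a retained-intron transcript only. Hnrnpr had 1 short-form and 1 long-form model, both in undivided cells. Its exon of 20 nt lay in a host intron without the usual donor.

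Factors of 3′ end formation and its control were members through single genes. Papola, the canonical poly(A) polymerase, was the sole member among 20 cleavage and polyadenylation genes, 5.0%. It had 0, 0 and 2 short-form and 2, 3 and 4 long-form models. Its terminal exon of 1110 nt (chr12:105835163-105836272) is annotated as protein coding, and the frame had 711 codons against 739. Snrnp70, the U1-70K protein, was the sole member among 18 genes of the U1 snRNP and of elongation control, 5.6%. Both shares stand beside 1.75% of all genes and 8.44% of those with at least 10 models. Snrnp70 had 2, 1 and 1 short-form and 1, 3 and 4 long-form models. Its short frame had 166 codons against 448, with the A-rich stretch shown above after the end. Fubp1, a single-strand DNA and RNA binding protein, had 2, 4 and 4 short-form models at its main terminal exon and 1, 0 and 0 long-form models. U2surp, a U2 snRNP-associated protein, had 2, 5 and 2 beside 1, 0 and 0, from an exon of 39 nt that was all repeat and ended before an A-rich stretch.

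Apobec3, a cytidine deaminase that restricts retroviruses, had 4, 5 and 6 short-form models and 1, 0 and 0 long-form models. Sp100, of PML nuclear bodies, had 2, 3 and 2 short-form and 7, 6 and 5 long-form models at the one of its 2 terminal exons with more models. Both Sp100 exons ended at the same base, before the A-rich stretch shown above. Samhd1, a dNTP hydrolase that restricts retroviruses, had 1, 1 and 0 short-form and 6, 10 and 5 long-form models, with a frame of 311 against 658 codons. Zbp1, a sensor of Z-form nucleic acids, had 1, 1 and 1 beside 4, 6 and 3, and repeats made up 92.5% of its terminal exon. Sp110 and Mndal had 1 short-form model each, in naive cells, beside 8, 5 and 8 and 9, 7 and 8 long-form models.

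Cdc42, Lamp2 and Npm1 are known for forms that differ at the C terminus, and all 3 had the short form in every library. Cdc42, a small GTPase of the cytoskeleton, had 1, 1 and 1 short-form and 3, 5 and 3 long-form models. In a chosen list of genes known elsewhere for an intronic or alternative terminal exon, which does not hold Lamp2 or Npm1, it was 1 of 11 with a member, 9.1%, beside 8.44% of genes with at least 10 models. Both forms were predicted to encode 191 amino acids, 29 of them from the terminal exon of 855 nt (chr4:137321765-137322619). Lamp2, a lysosomal membrane protein, had 1, 2 and 2 short-form and 1, 1 and 1 long-form models. Here too the predicted lengths were equal, 415 amino acids, with 45 from the terminal exon. Npm1, a nucleolar chaperone, had 1, 1 and 1 beside 1, 3 and 2, with 257 amino acids in the short form and 292 in the long form.

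**Figure D4:**
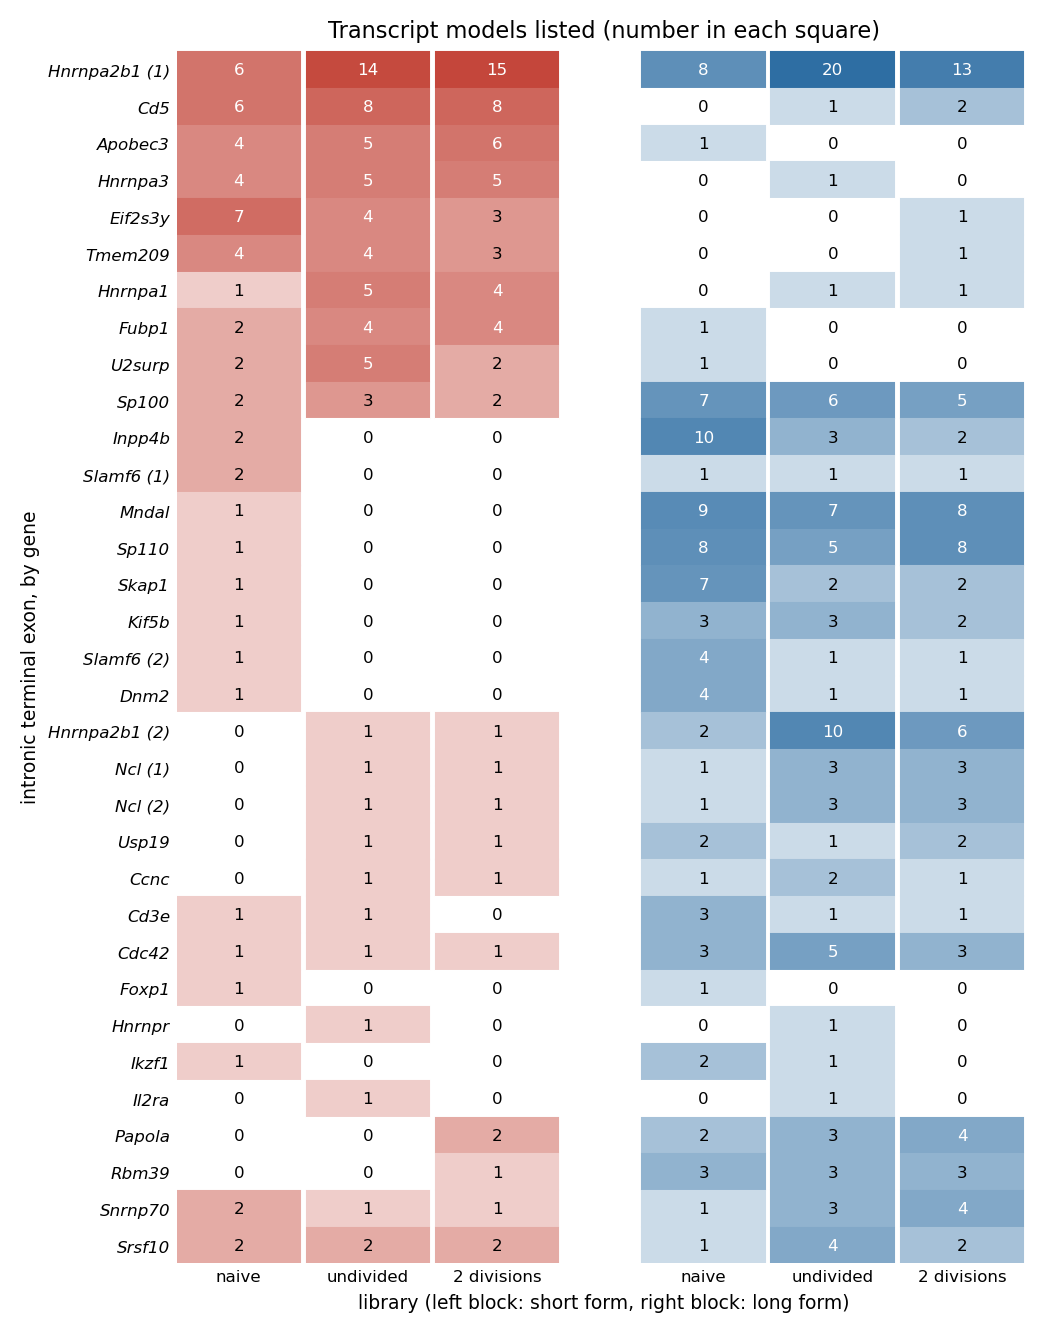
Number of short-form (red, left block) and long-form (blue, right block) models in each library for 33 intronic terminal exons with the most models, with a short form in naive or in both activated libraries only, or in a listed gene group. Darker squares hold more models, and numbers in parentheses tell members of one gene apart. Hnrnpa2b1 is highest with 14 and 15 short-form models in the activated libraries and 6 in the naive library.

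Where the long form was in all 3 libraries, the short form was in both activated libraries only for 5 members and in the naive library only for 13, of which the 8 with the most models are named. The activated ones were the second Hnrnpa2b1 exon, 2 in Ncl, which encodes nucleolin, 1 in Usp19, a deubiquitinase, and 1 in Ccnc, which encodes cyclin C. Each had 1 short-form model in undivided cells and 1 after 2 divisions. The long forms of both Ncl members used 7 host introns, each from 1 model and none in GENCODE. Their short forms had neither a signal nor a stop. The Ccnc end was A-rich without a signal, while Usp19 and the second Hnrnpa2b1 exon had a signal and no A-rich stretch. The naive ones were in Inpp4b, a phosphoinositide phosphatase, with 2 short-form models beside 10, 3 and 2 long-form models, in Slamf6 (2 members), Mndal, Sp110, Skap1, Kif5b and Dnm2. The last intron of the Inpp4b short form was 8 nt long without a closing AG, and 18 of the 20 bases after its end were A. Kif5b and the third Slamf6 exon also lacked the AG and had A-rich ends. Mndal and Skap1 had A-rich ends too, while Sp110, Dnm2 and the other Slamf6 member had a signal and no A-rich stretch. In Dnm2, which encodes the endocytic GTPase dynamin 2, the naive-only acceptor lies 3 nt from one that all libraries used (1, 2 and 1 models), so the terminal exon as such was not particular to naive cells. Eif4e2, a cap-binding protein that represses translation, had 0, 2 and 2 short-form and 2, 1 and 0 long-form models, with the AATAAA shown above and an annotated last acceptor. In 6 members the short form was in both activated libraries and the long form in the naive library only. Among them were 2 in Ddx27 and 1 in Thrap3, with a naive model whose host intron spans 8, 9 and 4 exons of the short form, and 1 in Emd, which encodes emerin of the nuclear envelope, with 0, 1 and 1 short-form models and 1, 0 and 0 long-form models.

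The farthest pairs lay in long genes. In Cdkal1, a tRNA-modifying enzyme, the short form after 2 divisions ended 510649 nt upstream of the farthest long end, in Foxp1 374561 nt, in Arhgap15 244564 nt, in Inpp4b 221517 nt and in Wdr70 218601 nt. Each of the short forms was in 1 library, with 2 models in Inpp4b and 1 in the others. The ends in Foxp1, Arhgap15 and Inpp4b were A-rich and had no signal, while those in Cdkal1 and Wdr70 had a signal and were not A-rich. In 7 members the long form left the gene: models read from Osbpl2 into Adrm1, from Pla2g12a into Casp6, from Gimap1 into Gimap5 (2 members), from Rnf31 into Irf9 and from Spn into Qprt, and in Eif2s3y to sequence with no annotated exon. Gimap1 and Gimap5 are neighbours in a cluster of GTPase genes that lymphocytes need for survival. In 6 of the 7 the last acceptor of the short form is annotated as such. In Eif2s3y, a Y-linked subunit of translation initiation factor 2, the short form had 7, 4 and 3 models and the long form 0, 0 and 1, and Tmem209 of the nuclear envelope, whose long form stays in the gene, had 4, 4 and 3 beside 0, 0 and 1.

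For the reading frame, each model was read from the most upstream annotated start codon that it holds. Where the models of a form differed, the longest frame that reached a stop was taken. A form with more models thus had more chances of a long frame, and lengths can also differ through parts upstream of the terminal exon. The frame read was not always that of the longest annotated protein. In Srsf10 both forms had 69 codons, against 262 in that protein. A short form with a start was available for 134 members. The stop codon lay in the intronic terminal exon in 89, which then gave a median of 27 amino acids. It lay upstream of that exon in 30, early stops among them, so that the exon had no coding part in the frame read. In 15 no stop was reached before the end, and 11 of these ended before an A-rich stretch. In 13 of the 15 the host intron spanned several exons of the short form. Where both forms had a frame with a stop (117 members), the short form was predicted to encode fewer amino acids in 75, as many in 10 and more in 32. In the 75 the short frame had a median of 57.6% of the length of the long one. A stop over 50 nt upstream of the last exon junction, the position that marks mRNAs for nonsense-mediated decay, was found in 17 short and 22 long forms of the 117, in both forms of 5. These are predictions from exon positions, and no protein was measured.

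**Figure D5:**
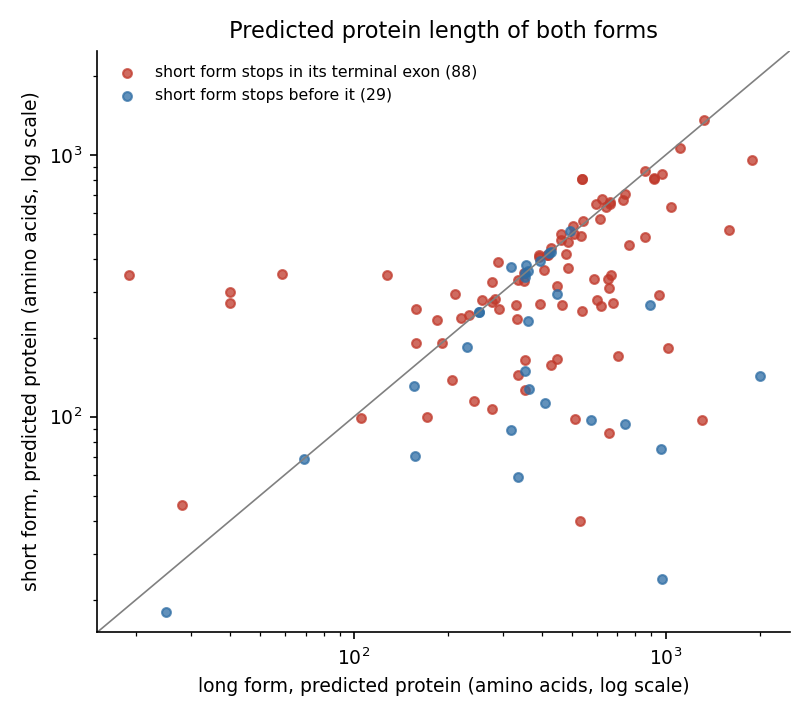
Predicted protein length of the short form (vertical) against the long form (horizontal) in amino acids on log axes, for 117 members with a stop in both frames; the grey line marks equal length. Points below the line (75) have the shorter protein in the short form. Of all 117 points, those with the short form's stop in the intronic terminal exon are red (88) and those with it upstream are blue (29). Each form is shown by its longest frame that reaches a stop.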

How the data were processed

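The authors built consensus reads (ccs), trimmed primers (lima), clustered full-length reads (isoseq3), mapped them (pbmm2), collapsed the clusters into isoforms and annotated these with SQANTI3. The submitters' notes also name minimap2, Subread, mm10 and GRCm38. The deposited values are of another kind than expression: per the file headers they hold exon start and end positions for each transcript model, with no counts. All 3 libraries were pooled to find members, and both forms were then looked up in each library. A host intron had to hold the terminal exon with at least 1 nt on both sides. Models were assigned to GENCODE M21 genes by shared splice sites. Sequence came from the RefSeq GRCm38.p6 genome, for 139 of 142 members. The end with the most models represented each member. Members and gene lists were chosen with earlier results of these data known. Named are the 10 members with the most short-form models, up to 8 per library pattern with the long form in all 3 libraries, list members, the 5 farthest pairs, those nearest the threshold and, chosen after their values were seen, some others. These others are Aplp2, Ddx27, Eif4e2, Emd, Gimap1, Hacd3, Hsp90b1, Lamp2, Npm1, Osbpl2, Pla2g12a, Rnf31, Samhd1, Spn, Thrap3, Tnfrsf9 and Zbp1. Some members are not reported here. Depth is known only as 10527, 12602 and 11109 models. The rule was tested on simulated models. Python 3.11.15, scipy 1.17.1, pysam 0.24.0 and matplotlib 3.10.9 were used.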

Additional observations from a re-analysis of the deposited data

How the results depend on the processing

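The number of members, 142, became 85 without A-rich short-form ends and 74 with at least 2 short-form models. It stayed between 101 and 142 with at least 2 shared introns, with 10 nt on both sides, with acceptors within 10 nt merged, with annotated last introns only, with annotated host introns only or with both forms in the same library. Settings chosen after seeing the data gave 111 with GT-AG or GC-AG ends in both introns and 93, 103 and 111 when the naive, undivided or 2-division library was left out. Single libraries gave 54, 61 and 54 in the same order. Without A-rich ends the short form was listed for 41, 59 and 62 members, in order of stage. Its share among members with either form was then 77.6% in undivided cells, and with the long form in all 3 libraries it was 49.1% in undivided cells and 61.8% after 2 divisions. The share of ends with a signal was 66.2% with all single-base variants of AATAAA, and that of A-rich ends 23.7% when a run of 6 A in 10 bases was asked for. The first 2 settings remove models and the wider motif admits more ends by construction; the cause of the other shifts was not tested. No paired analysis was possible because each group has 1 library and no result comes from a test, and leaving out replicates does not apply. The number of models stands in for depth, so a form that is not listed may have been missed.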

Other observations

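Short and long forms were spread over the libraries in different numbers. The short form was in all 3 libraries for 41 members and the long form for 55, and the short form was in both activated libraries only for 21, where the long form was for 13. The short form was the one with more models in 43 members, the long form in 69, and 30 had as many of both. A single end, with ends within 24 nt merged, was found in 125 members and several in 17, among them Lamp2 with 3 ends and terminal exons from 198 to 2343 nt, and Hnrnpa3 with 5 ends from 369 to 1897 nt. Of the 85 members whose last acceptor is annotated as such, 60 ended within 24 nt of an annotated end. In a chosen list of ubiquitin ligase genes, none of the 27 with a multi-exon model had a member, beside 1.75% of all genes. This holds for the genes of that list only, which does not hold Rnf31, a member named above. RefSeq lists 5 last acceptors as such that GENCODE M21 does not.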
